A study of Mus musculus with 30 samples.

Results

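The Pim kinases Pim1, Pim2 and Pim3 were followed through RNA sequencing of mouse haematopoietic progenitor lines that carried an activated STAT3, STAT3 itself or an empty vector. The members were taken by gene symbol, 3 of the 50686 genes listed in each count table, and all of them passed the filter on low counts in both lines. The study used HPCLSK and HPC7, lines of haematopoietic stem and progenitor cells, each transduced with a retroviral vector. The vector held STAT3Y640F (called Y640F here), STAT3, or only the marker dsRed (empty vector). Y640F is a change in the SH2 domain of STAT3 that is known to activate it. The labels give strain C57BL/6N for HPCLSK and 129SV for the RNA samples of HPC7, no treatment, and for all groups Iscove's medium with serum and stem cell factor, HPCLSK being kept on agarose. The promoter of the vectors is not given in the sources used here. There were 3 libraries in each of the 6 groups (18 libraries), named technical replicates in the series text, so p-values measure only the spread between these libraries. The 12 chromatin samples of the series were not analysed here.

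PIM proteins are serine/threonine kinases that are active as soon as they are made, so that their output is set largely by how much RNA and protein a cell holds. Cytokine receptors raise Pim transcription through Janus kinases and STAT proteins, and the kinases then phosphorylate regulators of survival, translation and the cell cycle. Pim1 was found as a site where a murine leukaemia virus inserts in lymphomas, Pim2 is a second kinase of the family expressed in blood cells, and Pim3 is the third, close in sequence to Pim1.

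Libraries held 9537258 to 22154763 counts in HPCLSK and 23127740 to 38556669 in HPC7. Stat3 RNA checked the vectors. It stood at 1901 ± 45.0 CPM (reads of a gene relative to the size of its library, scaled over the 18 libraries) with Y640F, 599 ± 42.2 with STAT3 and 355 ± 12.4 with empty vector in HPCLSK, and at 669 ± 20.9, 996 ± 17.1 and 225 ± 10.1 CPM with Y640F, STAT3 and empty vector in HPC7 (SD, n = 3 for each). Stat3 was therefore highest with Y640F in HPCLSK and with STAT3 in HPC7, and the form of STAT3 and the level of its RNA cannot be told apart. The lines were sequenced on different flow cells and differ in strain, so that line, strain and run cannot be told apart either. The first libraries of HPCLSK empty vector and HPCLSK Y640F stood apart from their groups. Chi-square per degree of freedom against the other libraries of the group was 22.42 and 29.06 for that Y640F library and 11.32 and 8.46 for that empty vector library, and the pairs of HPC7 empty vector libraries gave 10.81 to 21.00. The remaining pairs gave 2.60 to 6.67. The 9 progenitor markers chosen for the label were all over 1 CPM in every group, and the 4 B lymphoid markers were all under it.

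Each Pim gene lies on its own chromosome, and all 3 are transcribed from the plus strand of GRCm38. Pim1 (ENSMUSG00000024014.7) spans chr17:29490812-29496111, Pim2 (ENSMUSG00000031155.15) chrX:7878262-7883432 and Pim3 (ENSMUSG00000035828.10) chr15:88862186-88865718. The 250 bases before the RefSeq start of each gene (GRCm38.p6, plus strand, 5′ to 3′) are shown because the members shared some responses to the STAT3 forms and not others. Capitals mark 3 motifs on either strand. The GC box is GGGCGG. The octamer is ATGCAAAT. The CCAAT box is the run it is named for, and no match overlapped another.
Pim1, chr17:29490535-29490784: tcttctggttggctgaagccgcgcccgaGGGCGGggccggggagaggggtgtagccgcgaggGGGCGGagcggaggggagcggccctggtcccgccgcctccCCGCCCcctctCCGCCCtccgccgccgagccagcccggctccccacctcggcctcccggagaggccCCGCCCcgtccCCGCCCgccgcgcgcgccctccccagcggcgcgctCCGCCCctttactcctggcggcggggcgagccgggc
Pim2, chrX:7878056-7878305: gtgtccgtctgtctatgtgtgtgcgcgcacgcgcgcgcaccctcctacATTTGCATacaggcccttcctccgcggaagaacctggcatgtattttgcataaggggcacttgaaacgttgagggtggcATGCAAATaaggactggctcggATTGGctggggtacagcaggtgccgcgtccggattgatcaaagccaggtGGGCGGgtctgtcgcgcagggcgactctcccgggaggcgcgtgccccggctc
Pim3, chr15:88861944-88862193: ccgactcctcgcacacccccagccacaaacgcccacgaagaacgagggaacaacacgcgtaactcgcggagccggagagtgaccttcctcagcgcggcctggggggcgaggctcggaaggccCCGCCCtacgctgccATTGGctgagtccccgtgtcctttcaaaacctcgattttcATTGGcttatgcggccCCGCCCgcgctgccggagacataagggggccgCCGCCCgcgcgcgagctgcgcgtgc
The Pim1 stretch held 7 GC boxes, that of Pim2 held 1 and that of Pim3 held 3. The CCAAT box was found once for Pim2, 2 times for Pim3 and not for Pim1, and the octamer 2 times for Pim2 alone. These motifs were chosen after the sequences were seen. Of 32851 RefSeq windows of 300 bases (250 before and 50 after the start), 35.7% held a GC box, 37.4% a CCAAT box and 1.74% an octamer. The STAT motif TTCNNNGAA was found in 8.30% of those windows and the variant with 1 more base in its middle in 6.95%. Neither motif occurred in any of the 4 windows of the Pim genes. These include the window of a second RefSeq start of Pim1, which spans chr17:29492835-29493134. GC content was 81.3% in the first and 49.0% in the second Pim1 window, 62.7% for Pim2 and 69.0% for Pim3, beside a median of 52.7% over all windows. A match here is a run of letters, not a tested site.

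In HPC7, the RNA of Pim1 and Pim2 rose with Y640F, and Pim3 did not pass the test. The Y640F libraries held 280.0, 247 and 263 CPM of Pim1, against 103, 113 and 104 CPM in the empty vector libraries. Every Y640F library was above every empty vector library. Pim1, the member most often described as a cytokine-induced gene, rose 2.49-fold (log2 fold change 1.32 ± 0.05, SE; adjusted p = 3.3e-10, quasi-likelihood test of edgeR, adjusted by Benjamini-Hochberg across all genes). For Pim2, which is known as a survival kinase of lymphoid and myeloid cells, the values were 147, 128 and 134 CPM with Y640F and 43.3, 46.1 and 41.0 CPM with empty vector. Again the groups did not overlap. The share of all genes without overlap was not counted, here and in each within-line comparison that follows. Pim2 rose 3.18-fold (1.67 ± 0.06, adjusted p = 1.3e-10). Pim3 held 22.3, 19.5 and 20.6 CPM with Y640F and 20.5, 24.0 and 20.9 CPM with empty vector, and these ranges overlapped (−0.05 ± 0.08, adjusted p = 0.63). A gene counted as called here when its adjusted p was under 0.05 and its fold reached 2. By that rule 2 of the 3 members were called, where 8.18% of the 12683 genes tested were called in this comparison. On adjusted p alone, 57.3% of genes passed. In bulk RNA, less RNA per cell and fewer cells of a type cannot be told apart, here and in each comparison that follows.

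Unmutated STAT3 gave HPC7 a different order of Pim RNA. Pim1 held 50.3, 53.6 and 50.3 CPM with STAT3, against 103, 113 and 104 CPM with empty vector. Pim1 fell 2.08-fold (−1.06 ± 0.05, adjusted p = 4.4e-09), in all 3 libraries. It was not called by a test against a fold of 2 (adjusted p = 1, glmTreat). The Pim2 libraries stood at 24.9, 26.1 and 24.3 CPM with STAT3 and 43.3, 46.1 and 41.0 CPM with empty vector. These did not overlap, yet the change was below the fold minimum (−0.79 ± 0.06, adjusted p = 2.9e-07). Pim3, by contrast, held 37.4, 38.9 and 33.0 CPM with STAT3 and 20.5, 24.0 and 20.9 CPM with empty vector, higher in every STAT3 library but also below the fold minimum (0.75 ± 0.08, adjusted p = 3.7e-06). So 1 of 3 members was called, Pim1, where 7.22% of genes were called. An adjusted p under 0.05 alone was met by all 3 members, as by 48.6% of all genes tested.

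The 2 forms of STAT3 in HPC7 were furthest apart for Pim1 and Pim2. Pim1 rose 5.18-fold with Y640F over STAT3 (log2 fold change 2.37 ± 0.05, adjusted p = 3.4e-12), and Pim2 rose 5.49-fold (2.46 ± 0.06, adjusted p = 5.8e-12). Pim3 was lower with Y640F in every library, by −0.80 ± 0.08 on the log2 scale (adjusted p = 1.5e-06), which is under the fold minimum. The members called were 2 of 3, and 7.89% of genes were called. All 3 had an adjusted p under 0.05, as 51.2% of genes did. The printed stretches of Pim1 and Pim2 both hold the GC box, as that of Pim3 does, and the octamer is in Pim2 alone. Comparisons against empty vector and between the forms share libraries, so these values are not independent of each other.

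**Figure D1:**
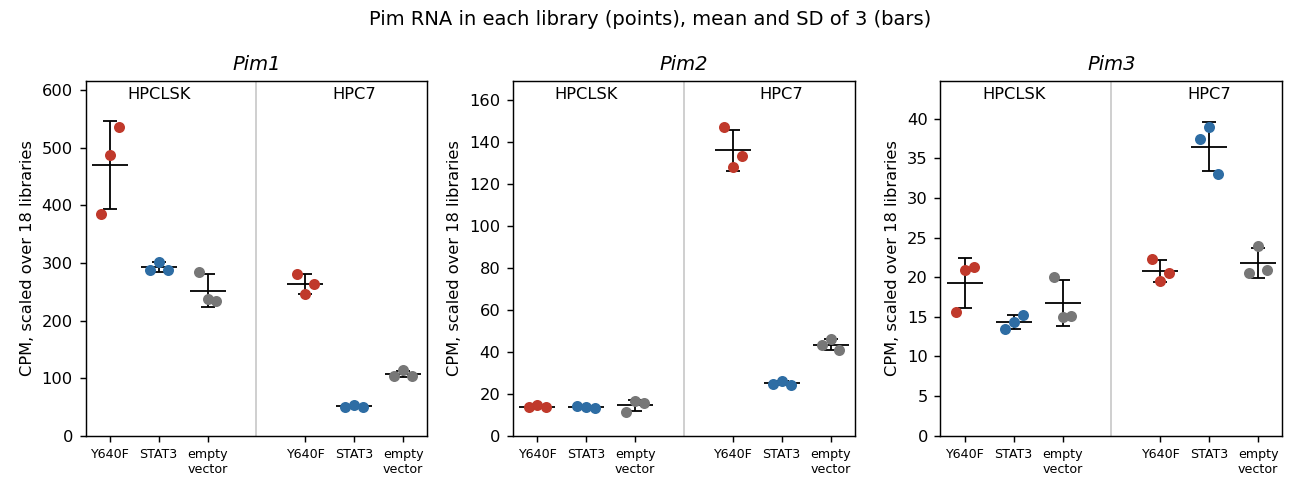
Scaled CPM (vertical axis, from 0) of Pim1, Pim2 and Pim3 in the 18 libraries, with HPCLSK left and HPC7 right in each panel and groups ordered Y640F, STAT3 and empty vector. Points are libraries and bars the mean and SD of 3. In HPC7, Pim1 and Pim2 are highest with Y640F and lowest with STAT3, and Pim3 is highest with STAT3. In HPCLSK, Pim2 lies between 11.5 and 16.4 CPM in every group.

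In HPCLSK no Pim gene passed the rule with Y640F, and Pim1 came closest. The Y640F libraries held 386, 487 and 535 CPM of Pim1, against 285, 237 and 233 CPM with empty vector. No library of one group reached the other. The log2 fold change was 0.91 ± 0.11 (adjusted p = 5.4e-05), just under the fold minimum. Leaving out 1 library at a time gave 0.81 (without Y640F replicate 3) to 1.01 (without Y640F replicate 1, the only case past it). Without the first libraries of both groups it was 1.11, also past it. That pair, chosen after the data were seen, held the lowest Y640F and the highest empty vector value of Pim1. Pim2 held 13.5, 14.6 and 13.6 CPM with Y640F and 11.5, 16.4 and 15.5 CPM with empty vector (−0.06 ± 0.12, adjusted p = 0.69). Pim3 held 15.6, 20.9 and 21.3 CPM with Y640F and 20.1, 15.0 and 15.1 CPM with empty vector (0.23 ± 0.14, adjusted p = 0.20). Both of these ranges overlapped, and 0 of 3 members were called, where 16.2% of 12552 genes were called. With adjusted p alone, 1 of 3 (Pim1) passed, as 58.5% of all genes did, and the same 1 passed on unadjusted p. DESeq2 also called 0 of 3 in each HPCLSK comparison.

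Stat3 RNA rose 5.40-fold with Y640F in HPCLSK. Monocyte and macrophage markers summed to between 6028 and 8958 CPM with Y640F, 963 and 1831 CPM with STAT3 and 736 and 940.2 CPM with empty vector in HPCLSK (5 markers, of which Ly86 was under 1 CPM in each group and had 0 counts with Y640F). Progenitor markers were lower with Y640F, at 3195 to 3490.5 CPM, against 4422 to 4797 with STAT3 and 5071 to 5449 with empty vector (9 markers, all of them over 1 CPM). Granulocyte markers summed to 12232 to 17039 CPM with Y640F, 13368 to 20158 with STAT3 and 7249 to 11489 with empty vector (7 markers). Of these, Camp was under 1 CPM with Y640F. The mast cell and basophil sum was 1010.4 to 1462 CPM with Y640F, 2963 to 3139 with STAT3 and 4068 to 5687 with empty vector (5 markers, Gzmb under 1 CPM in each group). Megakaryocyte markers summed to 457 to 707 CPM with Y640F, 782 to 892 with STAT3 and 1176 to 1674 with empty vector (4 markers, Gp1bb and Ppbp under 1 CPM in each group). The stromal sum, which came almost wholly from Pdgfrb with Col1a1 and Col1a2 under 1 CPM, was 75.5 to 109 CPM with Y640F, 135 to 142 with STAT3 and 153 to 197 with empty vector. The part of these shifts in the Pim1 value was not tested. In HPC7 the monocyte sum was 13.1 to 15.9 CPM with Y640F, 9.22 to 10.7 with STAT3 and 13.8 to 18.1 with empty vector (Ly86 and Cd14 under 1 CPM in each group). HPC7 progenitor markers summed to 3285 to 3416 CPM with Y640F, 3058 to 3096 with STAT3 and 3227.5 to 3449 with empty vector. The HPC7 mast cell and basophil sum was 435 to 452 CPM with Y640F, 356 to 367 with STAT3 and 324 to 456 with empty vector (Mcpt8, Fcer1a, Ms4a2 and Gzmb under 1 CPM in each group). The granulocyte sum there was 127 to 148 CPM with Y640F, 263 to 286 with STAT3 and 332 to 669.7 with empty vector (Elane, Camp, S100a8 and S100a9 under 1 CPM in each group). HPC7 megakaryocyte markers summed to 305 to 317 CPM with Y640F, 574 to 598 with STAT3 and 290 to 333 with empty vector (Gp1bb under 1 CPM in each group), highest with STAT3 as Pim3 was. The erythroid sum was 18.7 to 23.7 CPM with Y640F, 6.34 to 9.17 with STAT3 and 8.55 to 9.07 with empty vector (5 markers, Hbb-bt under 1 CPM in each group). The sum of T and natural killer cell markers was 2.72 to 3.98 CPM with Y640F, 0.213 to 0.437 with STAT3 and 0.991 to 1.16 with empty vector (4 markers, of which Cd3e and Ncr1 had 0 counts in each group), and the stromal sum was 94.3 to 99.5 CPM with Y640F, 46.1 to 46.6 with STAT3 and 69.95 to 81.1 with empty vector (3 markers, Col1a1 and Col1a2 under 1 CPM). Cd3d was also under 1 CPM in each HPC7 group, and Cd4 was under it with STAT3, so Cd4 alone passed 1 CPM in any group. Of the erythroid markers, Hba-a1 and Epb42 were also under 1 CPM with STAT3 and empty vector. Adgre1 of the monocyte markers was under it with Y640F and STAT3 in HPC7, and Ppbp of the megakaryocyte markers with Y640F. Sums of the erythroid, of the T and natural killer cell and of the stromal markers were highest with Y640F, as Pim1 and Pim2 were. The part of these marker sums in the HPC7 results was not tested.

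STAT3 alone moved no Pim gene past the rule in HPCLSK. Pim1 held 287, 302 and 288 CPM with STAT3 and 285, 237 and 233 CPM with empty vector, which did not overlap but were close (0.22 ± 0.11, adjusted p = 0.23). Pim2 held 14.0, 13.6 and 13.01 CPM with STAT3 and 11.5, 16.4 and 15.5 CPM with empty vector (−0.10 ± 0.12, adjusted p = 0.66). Pim3 held 13.4, 14.4 and 15.2 CPM with STAT3 and 20.1, 15.0 and 15.1 CPM with empty vector (−0.21 ± 0.15, adjusted p = 0.40). The last pair of genes overlapped between the groups, and 0 of 3 members were called, where 4.60% of genes were called and 14.1% passed on adjusted p alone. None of the 3 reached an unadjusted p under 0.05 there. Between the forms, Pim1 was 0.69 ± 0.11 higher with Y640F than with STAT3 (log2, adjusted p = 0.00046), Pim2 0.04 ± 0.12 (adjusted p = 0.80) and Pim3 0.44 ± 0.15 (adjusted p = 0.028), again 0 of 3 called, beside 14.2% of genes. Adjusted p alone was met by Pim1 and Pim3, and by 53.8% of genes. Libraries did not overlap between the forms for Pim1 and Pim3, and did for Pim2. How many of all genes were without overlap there was not counted.

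**Figure D2:**
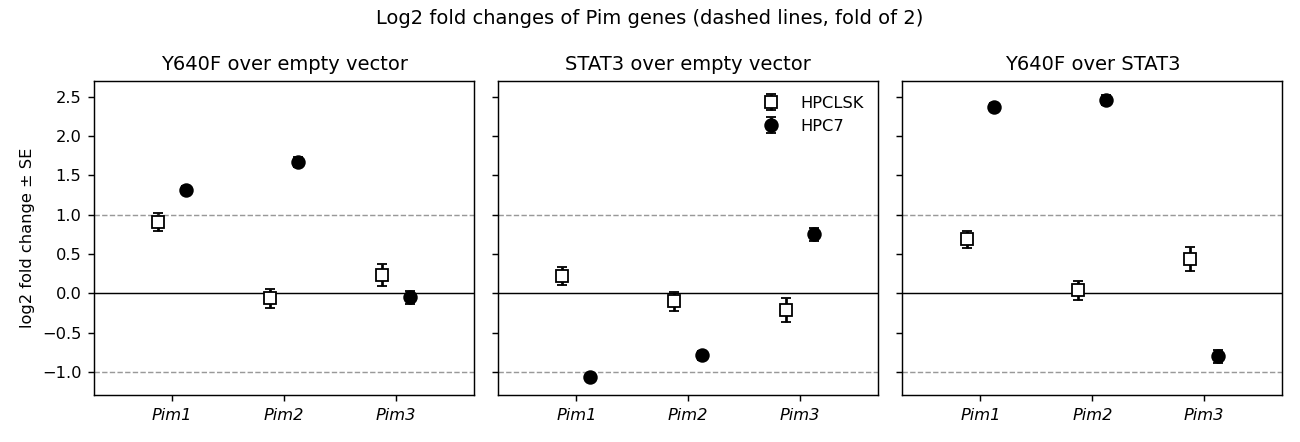
Log2 fold changes (vertical axis) with SE bars of the 3 Pim genes for each of the within-line comparisons, HPCLSK as open squares and HPC7 as filled circles, 3 libraries a group. Dashed lines mark a fold of 2. The circles of Pim1 and Pim2 pass it for Y640F over empty vector and Y640F over STAT3, the Pim1 circle also passes it downwards for STAT3 over empty vector, and no square does.

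The lines were then compared directly, as the HPCLSK log2 fold change minus the HPC7 one in a fit of all 18 libraries. For Y640F over empty vector, Pim2 differed by −1.73 ± 0.13 (adjusted p = 4.2e-09), and Pim1 by −0.40 ± 0.13 (adjusted p = 0.016) and Pim3 by 0.29 ± 0.17 (adjusted p = 0.16) without being called. Pim2 thus separated the lines in its answer to Y640F by more than the fold minimum, and 15.0% of the 13891 genes tested did so. For STAT3 over empty vector, Pim1 differed by 1.28 ± 0.13 (adjusted p = 6.5e-07), Pim2 by 0.68 ± 0.13 (adjusted p = 0.00063, not called) and Pim3 by −0.96 ± 0.17 (adjusted p = 0.00027, not called), with 8.25% of genes called. That Pim3 difference was −1.02 to −1.03, past the fold minimum, without HPC7 empty vector replicate 2, HPC7 STAT3 replicate 3, HPCLSK empty vector replicate 2 or HPCLSK empty vector replicate 3. The difference between the forms was smaller in HPCLSK for Pim1 (−1.67 ± 0.13, adjusted p = 1.2e-08) and Pim2 (−2.41 ± 0.13, adjusted p = 1.1e-10). It was positive for Pim3 (1.25 ± 0.17, adjusted p = 8.6e-06). All 3 members were called there, where 12.5% of genes were called. In the glmTreat test against a fold of 2, the Pim1 difference for STAT3 over empty vector (adjusted p = 0.15) and the Pim3 difference between the forms (adjusted p = 0.30) were not called. Under the same contrasts Stat3 RNA itself differed between the lines by 0.85 ± 0.07 (Y640F over empty vector), −1.39 ± 0.07 (STAT3 over empty vector) and 2.24 ± 0.07 (between the forms). The line and the level of Stat3 RNA cannot be told apart for these genes.

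Without added STAT3 the lines already held different Pim RNA. With empty vector, Pim1 stood at 252 ± 28.6 CPM in HPCLSK and 107 ± 5.49 CPM in HPC7, a rise of 2.35-fold (log2 fold change 1.23 ± 0.09, adjusted p = 4.4e-10). Pim2 stood at 14.5 ± 2.60 CPM in HPCLSK and 43.5 ± 2.55 CPM in HPC7 and fell 2.96-fold (−1.57 ± 0.09, adjusted p = 6.8e-12). Pim3 stood at 16.7 ± 2.91 CPM in HPCLSK and 21.8 ± 1.88 CPM in HPC7 (−0.40 ± 0.12, adjusted p = 0.0053, not called). The libraries of the lines did not overlap for any of the 3, but the share of all genes without overlap was not counted. Of the 3 members 2 were called, and of all genes 36.4% were called between the lines.

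By level in CPM, Pim1 ran from HPCLSK Y640F through HPCLSK STAT3, HPC7 Y640F, HPCLSK empty vector and HPC7 empty vector down to HPC7 STAT3. Of the neighbours in that order, HPC7 Y640F and HPCLSK empty vector overlapped. For Pim2 the order was HPC7 Y640F, HPC7 empty vector and HPC7 STAT3, followed by the 3 HPCLSK groups, which overlapped each other. Pim3 was highest in HPC7 STAT3, and each neighbour among the other 5 groups overlapped the next.

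Levels of different genes were compared per kilobase of exon. The summed level of the 3 genes was 191 ± 30.3 CPM per kb with Y640F, 122 ± 3.14 with STAT3 and 107 ± 11.2 with empty vector in HPCLSK. It was 157 ± 10.4 CPM per kb with Y640F, 43.5 ± 2.16 with STAT3 and 65.2 ± 3.67 with empty vector in HPC7. Pim1 made up most of it in HPCLSK: 93.2% ± 0.450 with Y640F, 91.2% ± 0.235 with STAT3 and 88.7% ± 0.850 with empty vector. In HPC7 the Pim1 share was 63.5% ± 0.369 with Y640F, 44.8% ± 1.13 with STAT3 and 62.3% ± 0.507 with empty vector. Pim2 contributed 31.0% ± 0.357 with Y640F, 20.6% ± 0.315 with STAT3 and 23.9% ± 0.581 with empty vector in HPC7. Its share was at most 5.76% in any HPCLSK library. The Pim3 share of HPC7 was 5.47% ± 0.0121 with Y640F, 34.6% ± 1.42 with STAT3 and 13.8% ± 0.433 with empty vector. Pim3 was thus the second gene of the family with STAT3 and the third with the other vectors in HPC7.

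**Figure D3:**
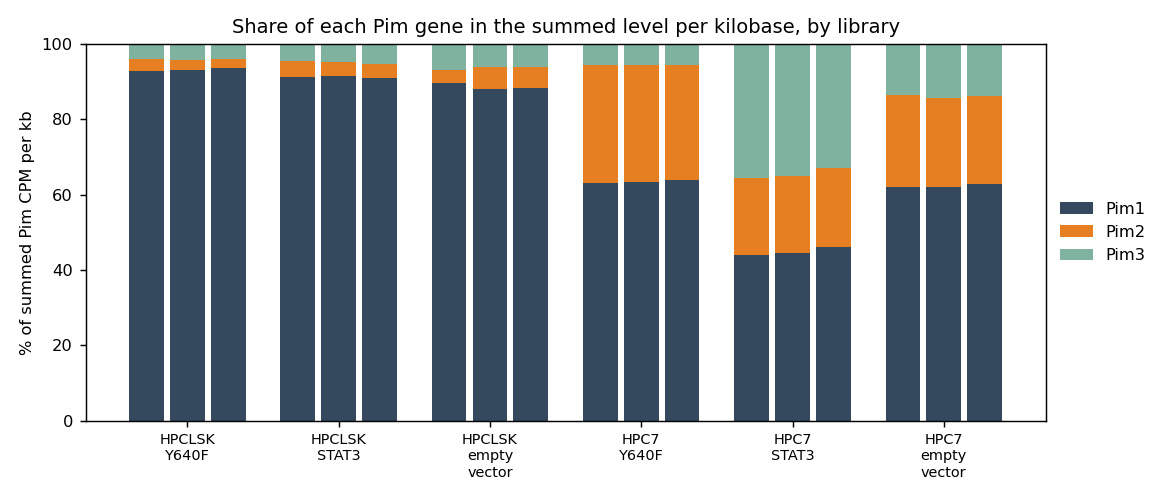
Share of each Pim gene (percent, from 0 to 100) in the summed level per kilobase of exon, a bar for each of the 18 libraries, HPCLSK left and HPC7 right. Pim1 fills at least 88.2% of every HPCLSK bar, and Pim3 reaches 35.6% in an HPC7 STAT3 library.

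Against all genes tested, Pim1 per kb was above 98.5% of genes in HPCLSK with Y640F, 97.4% with STAT3 and 96.7% with empty vector, and above 96.9%, 74.2% and 88.5% in HPC7 with Y640F, STAT3 and empty vector. Pim2 was above 39.4% to 40.9% of genes in HPCLSK and 55.9% to 91.0% in HPC7. Pim3 was above 44.0% to 50.2% of genes in HPCLSK and 54.2% to 68.2% in HPC7.

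Within a library the ratio of 2 Pim genes does not depend on library scaling. The log2 ratio of Pim1 to Pim2 per kb in HPC7 was 1.03 ± 0.03 with Y640F, 1.12 ± 0.02 with STAT3 and 1.38 ± 0.04 with empty vector (SD, n = 3). The forms thus differed by −0.08 in HPC7 in a ratio of genes that each changed by over 2 on the log2 scale. In HPCLSK that ratio was 5.15 ± 0.23 with Y640F, 4.52 ± 0.06 with STAT3 and 4.21 ± 0.43 with empty vector, with the forms 0.63 apart. The ratio of Pim1 to Pim3 was 3.54 ± 0.01 with Y640F, 0.37 ± 0.10 with STAT3 and 2.17 ± 0.05 with empty vector in HPC7, and 4.48 ± 0.06, 4.23 ± 0.09 and 3.79 ± 0.08 with Y640F, STAT3 and empty vector in HPCLSK. An exact two-sided permutation test of 3 against 3 libraries cannot go below 0.10, so no ratio reached p = 0.05.

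Genes most like each member were ranked by the root-mean-square difference over 4 log2 fold changes (each form over empty vector in each line, 18 libraries, 9157 genes). Closest to Pim1 were Lgals3bp (0.249), Stard9 (0.321) and Slfn5 (0.335). Closest to Pim2 were Cmpk2 (0.259), Soat2 (0.295) and Ddx58 (0.343), and to Pim3 Mycbp (0.130), Gas2l3 (0.150) and Kremen1 (0.159). The same distance was 0.557 between Pim1 and Pim2, 1.20 between Pim1 and Pim3 and 1.16 between Pim2 and Pim3.

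Genes around the members were looked at in the same way. The next tested gene before Pim1 is Fgd2, with a start 129.9 kb away. Fgd2 was called in HPC7 for STAT3 over empty vector (−1.40 ± 0.13, adjusted p = 1e-06) and Y640F over STAT3 (1.64 ± 0.13, adjusted p = 1.3e-07), and in HPCLSK for Y640F over STAT3 (1.13 ± 0.22, adjusted p = 0.0014). The other 5 neighbours, Tbc1d22b after Pim1, Otud5 and Slc35a2 beside Pim2 and Creld2 and 1810021B22Rik beside Pim3, were not called in any within-line comparison. Of tested genes within 1 Mb, the median log2 fold change of Y640F over STAT3 in HPC7 was 0.04 over 26 genes around Pim1, 0.09 over 34 around Pim2 and −0.12 over 26 around Pim3. Of these genes 3, 5 and 2 were called around Pim1, Pim2 and Pim3, where 7.89% of all genes were. Over their whole chromosomes it was 0.09, 0.13 and −0.04 for the chromosomes of Pim1, Pim2 and Pim3. Pim1 shares 468 exon bases with Gm26885 on the other strand, and that gene had 0 to 9 counts per library under stranded counting.

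**Figure D4:**
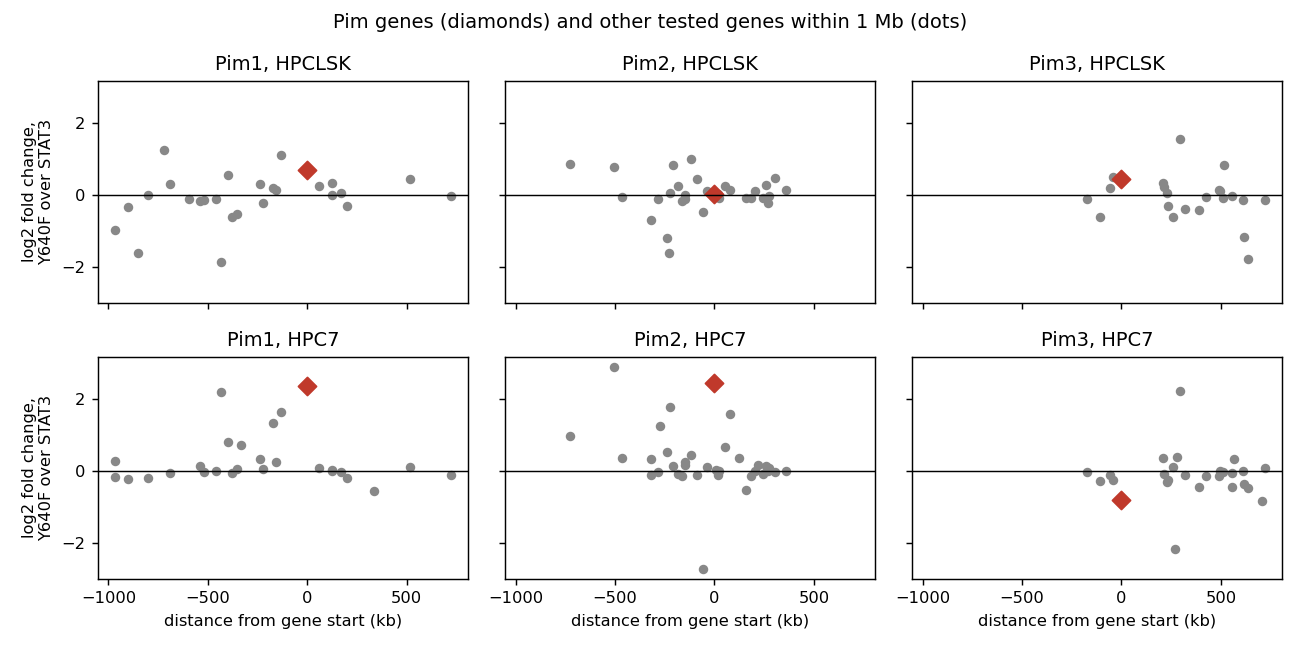
Log2 fold change of Y640F over STAT3 (vertical axis) against the distance of gene starts from each Pim gene (horizontal axis, kb), HPCLSK above and HPC7 below, from 3 libraries a group. Diamonds are the Pim genes and dots the other tested genes within 1 Mb. In HPC7, Pim1 (2.37) and Pim2 (2.46) lie above the medians of their surroundings (0.04 and 0.09), where single genes reach 2.20 near Pim1 and 2.90 and −2.73 near Pim2.

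Other genes of the pathway came from lists chosen with earlier results of these data known, and are described by counts. Of 23 other STAT-induced genes, 20 were tested in HPC7 and 21 in HPCLSK. With Y640F over empty vector in HPCLSK, 10 rose and 2 fell (9.62% and 6.57% of all genes), with a median log2 fold change of 0.86 beside −0.01 for all genes. In HPC7, 7 rose and 1 fell (4.54% and 3.64% of all genes), with a median of 0.50 beside 0.00. Socs3, the feedback inhibitor of cytokine signalling, was called in both lines (2.79 ± 0.13 in HPCLSK and 2.34 ± 0.11 in HPC7), as was Bcl3, a nuclear IκB protein (2.11 ± 0.10 in HPCLSK and 1.24 ± 0.12 in HPC7). The genes that fell were Ccnd2 (−3.34 ± 0.14) and Socs2 (−2.44 ± 0.43) in HPCLSK, and Vegfa (−1.92 ± 0.51) in HPC7. Ccnd2 fell from 245 CPM with empty vector to 24.1 CPM with Y640F. The other 2 were low throughout, Socs2 at 1.33 and 0.237 CPM and Vegfa at 0.500 and 0.134 CPM in the same order. STAT3 over empty vector gave 3 higher and 0 lower in HPCLSK (2.80% and 1.79% of all genes), and 2 higher and 3 lower in HPC7 (1.81% and 5.41%). Bcl3 fell with STAT3 in HPC7 (−2.49 ± 0.19) and Cish, another feedback inhibitor, rose (1.43 ± 0.11). Between the forms 9 were higher and 2 lower with Y640F in HPCLSK (8.11% and 6.09% of all genes), and 5 higher and 2 lower in HPC7 (6.17% and 1.73%).

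Receptors and signalling components upstream of the Pim genes numbered 31, of which 31 were tested in HPCLSK and 29 in HPC7. With Y640F over empty vector, 10 rose and 2 fell in HPCLSK (9.62% and 6.57% of all genes) and 3 rose and 2 fell in HPC7 (4.54% and 3.64% of all genes). Stat3, which the vectors carry, is in the list and is 1 of the higher genes in both lines, so its rise was fixed by the design. The median log2 fold change was 0.37 in HPCLSK and 0.21 in HPC7, beside −0.01 and 0.00 over all genes in those lines. Csf2rb, the shared beta chain of the granulocyte-macrophage and interleukin-3 receptors, and Csf2rb2, its mouse relative that serves the interleukin-3 receptor alone, were called as higher in both lines, Csf2rb by 1.56 ± 0.04 in HPCLSK and 1.36 ± 0.06 in HPC7 and Csf2rb2 by 1.66 ± 0.07 in HPCLSK and 2.58 ± 0.09 in HPC7. The genes are near copies of each other, and how the authors' counting split reads between them is uncertain. Il6st, the signalling chain of the interleukin-6 receptor, rose in HPCLSK (4.08 ± 0.17, Y640F over empty vector). The genes that fell with Y640F over empty vector were Kit (−1.51 ± 0.09) and Flt3 (−1.12 ± 0.13) in HPCLSK, and Csf3r (−1.77 ± 0.11) and Flt3 (−1.55 ± 0.24) in HPC7. STAT3 over empty vector gave 1 higher and 1 lower in HPCLSK (2.80% and 1.79% of all genes) and 1 higher and 3 lower in HPC7 (1.81% and 5.41%), where Il6st fell (−1.49 ± 0.16) and Stat3 was the 1 higher gene. Between the forms 8, Stat3 among them, were higher and 2 lower with Y640F in HPCLSK (8.11% and 6.09% of all genes), and 7 higher and 0 lower in HPC7 (6.17% and 1.73%).

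Genes for proteins reported as PIM substrates were counted in the same way, 28 of them tested in HPCLSK and 27 in HPC7. With Y640F over empty vector, 3 rose and 0 fell in HPCLSK (9.62% and 6.57% of all genes), and 2 rose and 2 fell in HPC7 (4.54% and 3.64% of all genes), with medians of −0.00 in HPCLSK and 0.07 in HPC7. Those that rose were Socs3, Socs1 (1.73 ± 0.34) and Abcg2, a drug efflux pump (2.62 ± 0.28), in HPCLSK, and Socs3 and Cdkn1a, a cell-cycle inhibitor (1.17 ± 0.07), in HPC7. The genes that fell in HPC7 were Cxcr4, a chemokine receptor, at 0.0218 CPM with Y640F and 5.26 CPM with empty vector, and Abcg2, at 0.0418 CPM with Y640F and 1.86 CPM with empty vector. STAT3 over empty vector gave 0 called by edgeR in HPCLSK, where 4.60% of all genes were called. Of the 28 tested there, 5 had an unadjusted p under 0.05. On adjusted p alone, 3 of the 28 were higher and 1 lower, where 14.1% of all genes passed in either direction. The share of all genes on unadjusted p was not counted for this list. In HPC7 it gave 0 higher and 2 lower (1.81% and 5.41% of all genes), Cxcr4 and Abcg2 again. Y640F over STAT3 gave 3 higher and 0 lower in HPCLSK (8.11% and 6.09% of all genes) and 1 higher and 0 lower in HPC7 (6.17% and 1.73%). The substrate list shares Socs1, Socs3, Myc and Cdkn1a with the list of STAT-induced genes. Of 13 genes for chaperones, phosphatase subunits and kinases that act on PIM proteins or beside them, 0 were called in each of the 6 within-line comparisons by edgeR, where 4.60% to 16.2% of all genes were called. With 13 genes this count is too small to set the list apart. For Y640F over empty vector their median was 0.20 in HPCLSK and −0.05 in HPC7, and 11 in HPCLSK and 7 in HPC7 had an unadjusted p under 0.05. For the other comparisons those numbers were 2 (STAT3 over empty vector) and 9 (Y640F over STAT3) in HPCLSK and 9 (STAT3 over empty vector) and 11 (Y640F over STAT3) in HPC7. The share of all genes on unadjusted p was not counted. On adjusted p alone, 9 of the 13 were higher and 2 lower for Y640F over empty vector in HPCLSK, where 58.5% of all genes passed. There, STAT3 over empty vector gave 1 higher and 0 lower (14.1% of all genes), and Y640F over STAT3 gave 6 and 2 (53.8%). In HPC7 the higher and lower counts were 2 and 5, 4 and 4, and 3 and 8 in the same order. The shares of all genes were 57.3%, 48.6% and 51.2%.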

How the data were processed

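RNA of 18 libraries was analysed, of 30 samples in the series. The deposited values are raw read counts per gene. Per the file headers, the authors ran featureCounts 1.5.1 over exons of GENCODE M13 (GRCm38), using strand setting 2, from alignments made with STAR, and the submitters' processing notes name Trimmomatic. The kit named in the labels differs between series text and sample protocols, and the HPC7 chromatin samples carry strain C57BL/6N. Gene IDs found a symbol for 50376 of 50686 genes. The counts held 0 values that were not whole, and 3 counts correspond to 0.0778 to 0.315 CPM, which covers counting error only.

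Tests were run in R 4.3.3 with edgeR 4.0.16, using TMM scaling, filterByExpr and its quasi-likelihood test. P-values were adjusted by Benjamini-Hochberg across all genes tested. Comparisons within a line used its 9 libraries (6 residual degrees of freedom), and those between lines all 18 (12). Printed CPM are scaled over 18 libraries. A log2 fold change carries its standard error. Alternatives were DESeq2 1.42.0, its size factors, other filters, glmTreat, the replicate block and left-out libraries. The test was checked on simulated counts. Members, lists and alternatives were chosen with earlier results of these data known. Beyond the members and Stat3, the genes named are the 3 most like each member (at least 5 CPM on average), the nearest tested gene on either side, and up to 5 called members of a list per comparison. Promoter windows are from the RefSeq table of GRCm38.p6.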

Additional observations from a re-analysis of the deposited data

Results flagged for a closer look

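The response of Pim genes to the STAT3 forms differed between the lines, HPCLSK minus HPC7, in 5 tests of the difference itself where adjusted p was under 0.05 and the fold reached 2 (quasi-likelihood test of edgeR). For Y640F over empty vector this was Pim2, with a difference in log2 fold change of −1.73 (adjusted p = 4.2e-09). For STAT3 over empty vector it was Pim1, at 1.28 (adjusted p = 6.5e-07). For Y640F over STAT3 all 3 genes met it, with Pim1 at −1.67 (adjusted p = 1.2e-08), Pim2 at −2.41 (adjusted p = 1.1e-10) and Pim3 at 1.25 (adjusted p = 8.6e-06). Of all genes tested, 15.0% (Y640F over empty vector), 8.25% (STAT3 over empty vector) and 12.5% (Y640F over STAT3) met it. The Pim1 value of 1.28 and the Pim3 value of 1.25 were not called by glmTreat against a fold of 2. Comparisons that share the same libraries are not independent of each other.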

How the results depend on the processing

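Over alternatives other than left-out libraries, 195 of 198 values of the Pim genes kept their direction and their side of the threshold. The 3 exceptions came from glmTreat, which tests against a fold of 2: Pim1 for STAT3 over empty vector in HPC7 (−1.06, adjusted p = 1), its difference between lines (1.28, adjusted p = 0.15) and Pim3 for the forms between lines (1.25, adjusted p = 0.30). Counts of genes called moved with the call rule and the filter, given in the order Y640F over empty vector, STAT3 over empty vector and Y640F over STAT3. With an adjusted p alone they were 7349, 1766 and 6756 in HPCLSK, 7263, 6165 and 6488 in HPC7, 6755, 4218 and 6289 for the differences between lines, and 11193 for empty vector between lines. At 5 CPM in 3 libraries they were 1201, 343 and 982 in HPCLSK, 416, 340 and 444 in HPC7, 1142 for the forms between lines and 3089 for empty vector between lines. Under glmTreat they were 1201, 213 and 924 in HPCLSK, 487, 431 and 488 in HPC7, and 967, 474 and 691 between lines. Leaving out 1 library turned the sign of values near 0: Pim3 for Y640F over empty vector in HPC7 (0.02 without empty vector replicate 2, range −0.09 to 0.02), and in HPCLSK Pim2 for Y640F over empty vector (0.04 without empty vector replicate 2, range −0.22 to 0.04), for STAT3 over empty vector (0.00 without the same library, range −0.23 to 0.00) and for the forms (−0.01 without STAT3 replicate 3 or Y640F replicate 2, range −0.01 to 0.06). It brought Pim1 for Y640F over empty vector in HPCLSK past the fold minimum (1.01 without Y640F replicate 1, range 0.81 to 1.01), as did leaving out the first libraries of Y640F and empty vector together (1.11, with Pim3 at 0.48 and Pim2 at −0.20). The difference of Pim3 between lines for STAT3 over empty vector ran from −1.03 to −0.82 and passed it without any of 4 libraries. No other call of a Pim gene changed on leaving out a library. The lists were counted again without the first HPCLSK libraries of Y640F and empty vector, a choice made after seeing the data. Y640F over empty vector in HPCLSK then gave 9 higher and 2 lower of 21 STAT-induced genes and 8 and 2 of 31 upstream components. It gave 3 and 0 of 28 substrates, and 0 called of 13 stability genes. In the main fit 9.62% of all genes were higher and 6.57% lower, and these shares are not given for the reduced fit. The replicate number does not pair libraries, since deviations of same-numbered libraries correlated at −0.29 to 0.17 in HPCLSK and −0.17 to 0.18 in HPC7. With a replicate block no call of a Pim gene changed, the adjusted p of Pim3 for Y640F over STAT3 in HPCLSK was 0.056, and Pim1 for Y640F over empty vector was 0.90 in HPCLSK and 1.32 in HPC7. Counts of genes called with the block ran from 548 to 5068 and stayed within 1.5 times. In HPCLSK, Pim2 rests on 126 to 368 counts per library and Pim3 on 147 to 435, which limits small differences there. The causes of these changes were not tested.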
